A study of Homo sapiens with 20 samples.

Results

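FOXA1, HOXB13, GATA2 and GRHL2 are 4 transcription factors that define luminal prostate cells. They were taken from both RNA-seq count tables by gene symbol, and all 4 were found among the 57773 gene rows of each table. The tables cover LNCaP, an androgen-responsive human prostate adenocarcinoma line, in 10 conditions and 20 samples. In the first table, parental LNCaP cells were transfected for 2 days with 20 nM of a control siRNA (siNTC, n = 2) or of siRNA against EHMT1, a histone lysine methyltransferase (siEHMT1, n = 2). In the second, 4 stable LNCaP lines carried a doxycycline-regulated, tagged EHMT1 as wild type (WT) or with lysine-to-arginine mutations (K450R, K451R and K450RK451R), and each was left untreated (Veh) or given 0.25 µg/mL doxycycline for 2 days (Dox). The lines still contained their own EHMT1, no line without the transgene was included, and whether each line is 1 clone is not given in the sources used here. A response to doxycycline itself and a response to the induced EHMT1 therefore cannot be told apart. The 2 columns of each stable-line condition differed by no more than counting noise and were summed to 1 sample, so the 4 lines served as the replicates of Dox.

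Lineage factors of this kind decide which enhancers are open in a cell. FOXA1 is a forkhead pioneer factor that opens chromatin for androgen-driven transcription, and GATA2 is a zinc-finger factor that acts with it at many of the same enhancers. HOXB13 is a posterior homeobox factor specific to prostate and distal gut, where it directs the choice of androgen-dependent sites. GRHL2 is a grainyhead factor that maintains epithelial junction genes and counters mesenchymal programmes.

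FOXA1 and GATA2 were the members that moved furthest up and furthest down with Dox, so the 250 bases before their annotated starts are shown, 5′ to 3′ on the transcribed strand, from the RefSeq promoters of GRCh38.p14. GATA2 has 2 starts there, and HOXB13 and GRHL2 had no entry. Capitals mark matches to the forkhead motif TGTTTNC or the GATA motif GATAA on either strand.
FOXA1, chr14:37595250-37595499, minus strand: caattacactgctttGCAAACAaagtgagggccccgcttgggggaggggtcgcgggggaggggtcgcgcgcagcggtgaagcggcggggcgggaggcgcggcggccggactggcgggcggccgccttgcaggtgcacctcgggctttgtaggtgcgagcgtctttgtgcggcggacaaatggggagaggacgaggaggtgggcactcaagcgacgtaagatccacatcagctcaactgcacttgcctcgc
GATA2 start 1, chr3:128493202-128493451, minus strand: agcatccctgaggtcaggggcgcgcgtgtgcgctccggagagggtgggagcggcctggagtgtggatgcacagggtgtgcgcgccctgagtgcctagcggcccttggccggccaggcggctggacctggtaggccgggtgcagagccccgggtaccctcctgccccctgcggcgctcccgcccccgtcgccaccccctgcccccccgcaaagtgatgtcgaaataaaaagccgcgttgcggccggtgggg
GATA2 start 2, chr3:128488531-128488780, minus strand: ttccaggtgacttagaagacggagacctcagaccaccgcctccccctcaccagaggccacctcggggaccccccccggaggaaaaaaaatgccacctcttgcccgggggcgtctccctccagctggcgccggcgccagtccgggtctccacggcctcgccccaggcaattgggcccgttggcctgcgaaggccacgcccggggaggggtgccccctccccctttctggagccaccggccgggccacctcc
The FOXA1 window held 1 forkhead match, 235 bases before the start, and no GATA match, and neither GATA2 window held either motif. Among 35116 RefSeq promoters, 15.5% held a forkhead match and 20.4% a GATA match in the same 250 bases. All 3 windows were rich in G and C, at 67.2% for FOXA1 and 72.8% and 71.2% for the GATA2 starts, against a median of 58.0% over all promoters. The FOXA1 window held 26 CG pairs and the GATA2 windows 24 and 18, against a median of 11. The GC box GGGCGG, present in 42.6% of promoters, was found at 2 places in the FOXA1 window and at 1 place before GATA2 start 1. None of the windows held the HOX13 motif CCAATAAA (0.863% of promoters), the E-box CACGTG (6.34%), the E2F motifs TTTCCCGC (1.39%) and TTTGGCGC (0.55%) or the steroid receptor half-site AGAACA (12.4%). These matches describe letters in a window and not binding.

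The manipulated gene was checked first. EHMT1 was at 87.8 and 83.6 CPM (counts scaled to library size, with TMM factors within each table) in the siNTC samples and at 29.2 and 30.7 in the siEHMT1 samples, a log2 difference of -1.51. In the stable lines EHMT1 rose from 71.7 to 88.9 CPM in Veh to 663 to 842 CPM in Dox, a fitted log2 difference of 3.23. The siRNA libraries held 5593400 to 12438006 counts each, and the summed stable-line libraries 8436791 to 12407739. At this depth 3 counts corresponded to 0.232 to 0.593 CPM, and every member had at least 837 reads in every sample. The luminal identity of the cells was checked with markers. All 7 luminal markers, among them KLK3, the gene for prostate-specific antigen, and the keratins KRT8 and KRT18, had at least 3 counts in every sample and summed to 4690 to 5029 CPM in the siRNA samples. In the stable lines their sum was 10670.4 to 11550 CPM in Veh and 10876 to 11935 CPM in Dox, which overlapped. Most of this sum was KLK3, at 7349 to 8322 CPM, while KRT19 was at 5.94 to 11.8 CPM. The sum therefore says little about the weaker markers. The basal markers KRT5 and TP63, the neuroendocrine markers CHGA, CHGB and INSM1, the immune marker PTPRC and the endothelial marker CDH5 had 0 counts in every sample. Basal markers summed to at most 1.52 CPM, immune markers to at most 0.626 CPM and neuroendocrine markers to at most 2.09 CPM. The stromal list summed to 16.2 to 41.4 CPM, of which COL1A1 gave 15.3 to 40.8 CPM, while COL1A2 had no counts. VWF, the other endothelial marker found, was at 7.71 to 9.26 CPM in siNTC, 15.6 to 16.0 CPM in siEHMT1 and 3.35 to 7.25 CPM in the stable lines. In bulk RNA of this kind, fewer cells of a type and less RNA per cell cannot be told apart.

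All 4 factors were among the more strongly expressed genes of LNCaP. To compare genes, reads were divided by exon length and scaled to library size (RPKM). In the siRNA samples HOXB13 was the highest member at 127 to 138 RPKM, followed by FOXA1 at 67.5 to 73.3 RPKM. GATA2 at 33.9 to 39.0 RPKM and GRHL2 at 31.7 to 37.0 RPKM overlapped there. HOXB13 ranked above 98.1% of the 14030 expressed genes in every sample of both tables. In the uninduced stable lines the order was different, with GATA2 first at 149 to 159 RPKM, then HOXB13 at 124 to 133, FOXA1 at 37.0 to 49.6 and GRHL2 at 17.3 to 21.7 RPKM, with no overlap between neighbours. With Dox, HOXB13 at 145 to 156 RPKM and GATA2 at 114 to 159 RPKM overlapped. The gap between these 2 genes also depends on the length used, because only the GATA2 length shrinks, from 4915 to 3798 bases, when the longest transcript replaces the union of exons.

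The 2 tables were normalised separately and come from parental and stable cells, so their levels are set side by side without a test. GATA2 had a mean of 191 CPM in siNTC and 753 CPM in the uninduced lines. FOXA1 had means of 322 and 190 CPM in the same groups, and GRHL2 205 and 115 CPM. HOXB13 was at 400 and 395 CPM. GATA2 was higher, and FOXA1 and GRHL2 were lower, in all 8 stable-line samples than in all 4 siRNA samples. With TMM factors set over both tables together this held for GATA2 and GRHL2, while FOXA1 in K451R Dox, at 285 CPM, passed the lower siEHMT1 sample, at 283 CPM.

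**Figure D1:**
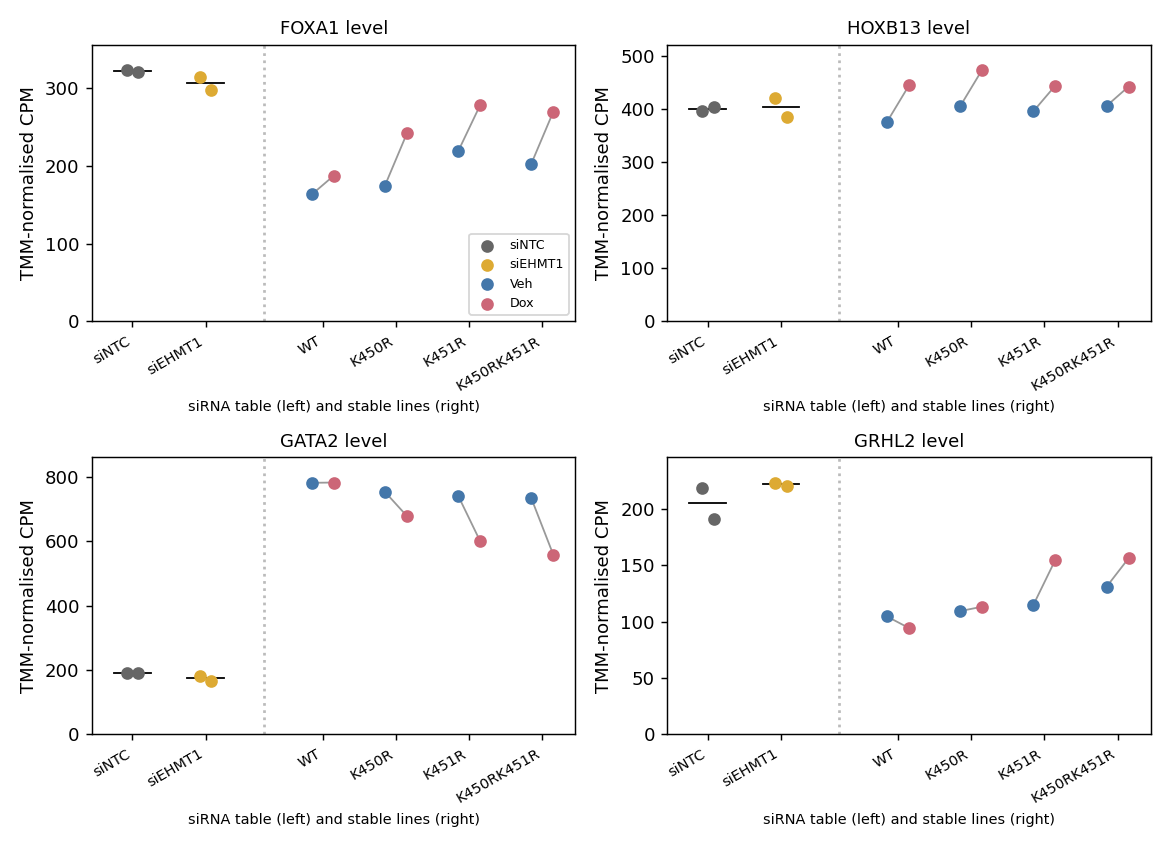
Level of each gene in every sample, in TMM-normalised CPM (y axis), with siRNA samples left of the dotted line (points are replicates, bars their mean) and the 4 stable lines right of it (grey lines join Veh and Dox of a line). GATA2 sits between 167 and 191 CPM in the siRNA samples and between 559 and 783 CPM in the stable lines, and FOXA1 lies higher in Dox than in Veh in each line.

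Silencing EHMT1 asked whether the endogenous enzyme is needed for these factors. Of the 4 members 0 passed an adjusted p of 0.05 in edgeR's quasi-likelihood test, and 0 passed an unadjusted p of 0.05. FOXA1 was at 324 and 321 CPM in siNTC and 314 and 298 CPM in siEHMT1, a log2 difference of -0.08 with a 95% interval of -0.25 to 0.10 (edgeR adjusted p = 0.834). HOXB13 was at 397 and 403 CPM in siNTC and 421 and 385 CPM in siEHMT1, and its siEHMT1 values enclosed the control values. GATA2 was at 191 and 191 CPM in siNTC and 180 and 167 CPM in siEHMT1, a log2 difference of -0.14 (-0.33 to 0.04). For GRHL2 the values were 219 and 192 CPM in siNTC and 224 and 221 CPM in siEHMT1, a log2 difference of 0.11 (-0.08 to 0.30). None of these differences passed the test, and the widest bounds of their intervals were -0.33 for GATA2 and 0.30 for GRHL2. Across the 14532 genes tested, 0.131% passed the adjusted threshold and 9.55% the unadjusted one. DESeq2 and limma-voom also called 0 of the 4. HOXB13 changed sign in 2 of the 13 alternatives.

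Dox was then compared with Veh, which takes induced WT or mutant EHMT1 together with any response to doxycycline itself. FOXA1 rose in the shared Dox test. HOXB13 rose and GATA2 fell by similar small amounts (log2 differences of 0.19 and -0.21), both just inside the threshold, and GRHL2 did not pass. Over the 14105 genes tested, 0.603% passed upward and 1.51% downward at an adjusted p of 0.05, with the line as a block. With total counts in place of TMM the split of all calls turned from 85 higher and 213 lower to 326 higher and 108 lower, while all 4 members kept their sign under either scaling. TMM factors were higher in Dox than in Veh in each line, by 0.02 to 0.14 on the log2 scale.

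FOXA1, the pioneer factor, was at 163, 175, 219 and 203 CPM in WT, K450R, K451R and K450RK451R cells with Veh and at 187, 242, 278 and 270 CPM with Dox. The 2 ranges overlapped between groups, but every line was higher with Dox than without it. The fitted difference was 0.36 ± 0.06 on the log2 scale (SE, 4 lines, edgeR adjusted p = 4.18e-04), or 1.28-fold. This call was made in all 14 alternative settings, with differences of 0.32 to 0.44.

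HOXB13, the homeobox factor, was at 375, 405, 395 and 405 CPM with Veh and at 444, 473, 444 and 442 CPM with Dox in the same order of lines. Each of the 4 lines was higher with Dox than with Veh, as were 10.7% of all genes tested. The fitted log2 difference was 0.19 ± 0.05 (SE, edgeR adjusted p = 0.0492), or 1.14-fold, just inside the threshold. It was positive in all 14 alternatives and passed in 6 of them, with edgeR, DESeq2 or limma-voom adjusted p between 2.47e-05 and 0.223. The call was lost without any 1 of the 4 lines, at adjusted p of 0.0689 without WT, 0.223 without K450R, 0.188 without K451R and 0.0915 without K450RK451R.

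GATA2, the zinc-finger factor, was at 783, 754, 742 and 734 CPM with Veh and at 783, 679, 601 and 559 CPM with Dox. WT cells were level, and the 3 mutant lines were lower with Dox and below every Veh sample. The fitted log2 difference was -0.21 ± 0.06 (SE, edgeR adjusted p = 0.0484). It was negative in all 14 alternatives and passed in 6. The call was lost without K450R (adjusted p = 0.152), K451R (0.291) or K450RK451R (0.328), and with total counts in place of TMM the difference was -0.13 (adjusted p = 0.168).

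GRHL2, the grainyhead factor, was at 105, 109, 115 and 131 CPM with Veh and at 94.3, 113, 155 and 156 CPM with Dox. K451R and K450RK451R cells were higher with Dox, K450R cells were nearly level, and WT cells were lower. The fitted log2 difference was 0.15 ± 0.07 (SE, edgeR adjusted p = 0.319). Without the WT line it was 0.25 and passed, with an edgeR adjusted p of 0.0415, and without K451R it was 0.06.

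FOXA1 and HOXB13 were higher with Dox in all 4 lines, a pattern shared by 10.7% of all genes tested. GATA2 was lower in the 3 mutant lines and not in WT. Within a line there is 1 sample per treatment, so the ratios carry a counting interval only, and no replicate check. The FOXA1 ratio of Dox to Veh was 1.15 (95% interval 1.07 to 1.23) in WT, 1.38 (1.29 to 1.48) in K450R, 1.27 (1.20 to 1.35) in K451R and 1.33 (1.26 to 1.41) in K450RK451R cells. The HOXB13 ratio lay between 1.09 (K450RK451R) and 1.18 (WT), and each interval stayed above 1. GATA2 had ratios of 1.00 (0.970 to 1.03), 0.900 (0.869 to 0.933), 0.810 (0.783 to 0.838) and 0.761 (0.736 to 0.786) in the same order. The GRHL2 ratios were 0.902 (0.825 to 0.986), 1.04 (0.946 to 1.13), 1.35 (1.25 to 1.46) and 1.19 (1.11 to 1.28), so only the K450R interval held 1. No member reached 1.5-fold in any line, a size that 8.61% of genes reached in WT, 9.97% in K450R, 8.83% in K451R and 11.1% in K450RK451R cells.

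**Figure D2:**
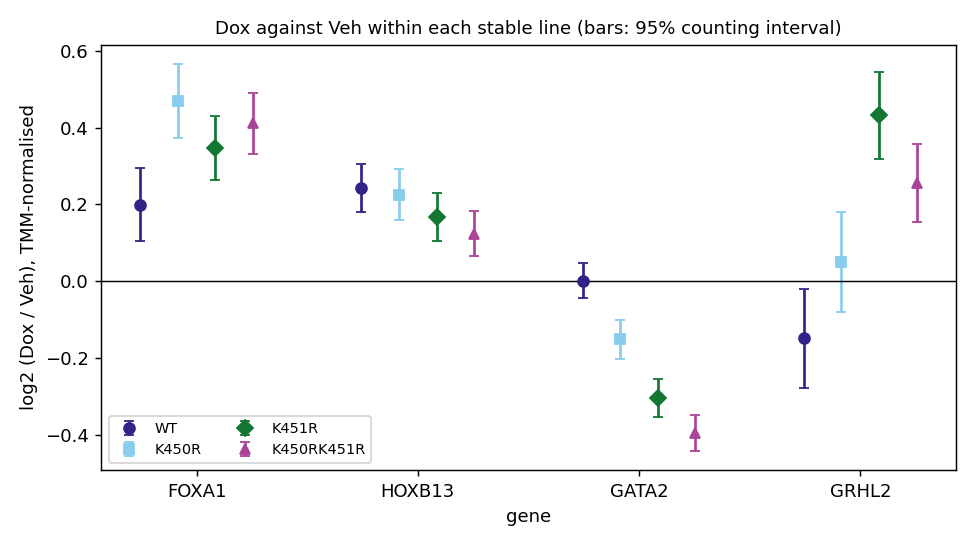
Log2 ratio of Dox to Veh (y axis) for each gene in each stable line, with bars for the 95% interval from counting error. FOXA1 and HOXB13 are above 0 in all 4 lines, and GATA2 goes from 0.00 in WT to -0.39 in K450RK451R cells.

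Whether the Dox response differed between the 3 mutants and WT was tested as an interaction. Of the 4 members 0 passed an adjusted p of 0.05, which 0.163% of genes did. At an unadjusted p of 0.05, which 7.1% of genes reached, GATA2 and GRHL2 passed. The GATA2 response was lower in the mutants than in WT by 0.29 on the log2 scale (95% interval of the difference -0.50 to -0.07, edgeR adjusted p = 0.544). The GRHL2 response was higher in the mutants by 0.40 (0.10 to 0.69, edgeR adjusted p = 0.521). FOXA1 differed by 0.21 (-0.04 to 0.45) and HOXB13 by -0.07 (-0.29 to 0.15). WT is a single line here, so a difference between the mutants and WT cannot be told apart from one between lines.

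**Figure D3:**
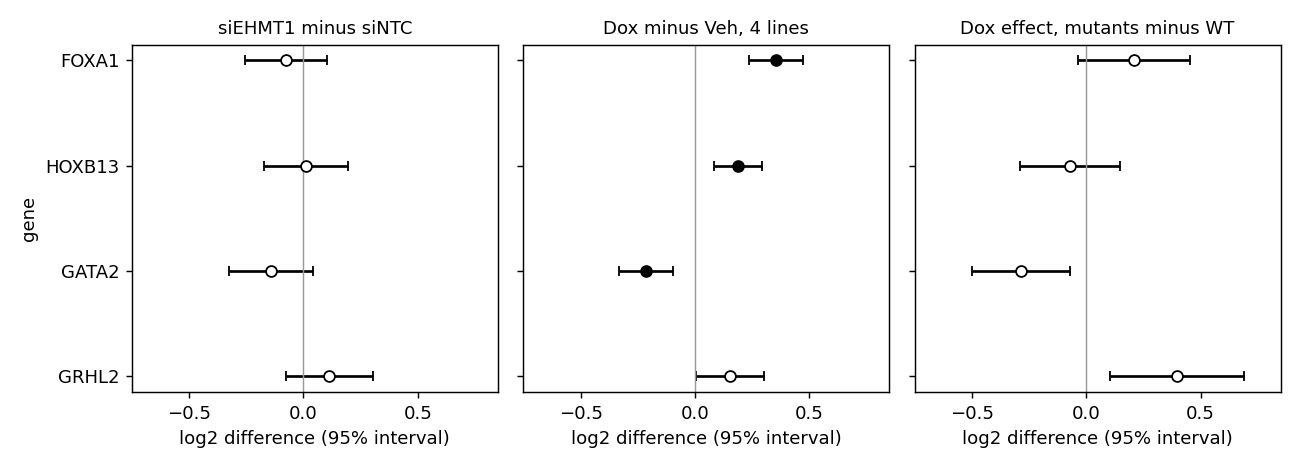
Fitted log2 differences (x axis) with 95% intervals for the 4 genes (y axis) in the siRNA comparison, the shared Dox comparison and the interaction of Dox with mutant. Filled points have an adjusted p under 0.05, which holds for FOXA1, HOXB13 and GATA2 with Dox and for no gene in the other 2 panels.

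The 4 lines were also tested for differences in level averaged over Veh and Dox, which does not separate the 2 treatments. Across the lines GRHL2 spanned 105 to 131 CPM in Veh and 94.3 to 156 CPM in Dox. FOXA1 spanned 163 to 219 CPM in Veh and 187 to 278 CPM in Dox. GATA2 spanned 734 to 783 CPM in Veh and 559 to 783 CPM in Dox. Over all genes 3.05% passed this test of line, and FOXA1 (edgeR adjusted p = 9.62e-04) and GRHL2 (adjusted p = 4.92e-03) were among them. Averaged over Veh and Dox, FOXA1 was higher than in WT by 0.23 (95% interval 0.07 to 0.40) in K450R, 0.49 (0.33 to 0.66) in K451R and 0.42 (0.25 to 0.58) in K450RK451R cells on the log2 scale. The last 2 lines did not differ beyond their spread, with an interval of -0.24 to 0.09 for the difference. GRHL2 was higher than in WT by 0.43 (0.22 to 0.64) in K451R and 0.52 (0.31 to 0.73) in K450RK451R cells, and by 0.15 (-0.06 to 0.36) in K450R cells. GATA2 was lower by 0.29 in K450RK451R than in WT cells but missed the test over lines (adjusted p = 0.124). For HOXB13 the differences between lines lay between -0.06 and 0.10 (adjusted p = 0.824). With 1 line per EHMT1 form, the form and the line cannot be told apart.

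Ratios of 2 genes within a library do not depend on library scaling. FOXA1 and GATA2 were, however, the members that moved furthest up and furthest down with Dox in these same samples. Their ratio, and the others over GATA2, restate those changes and are not separate support for them. FOXA1 gave 0.209 reads per GATA2 read in WT Veh and 0.239 in WT Dox. The ratio went from 0.232 to 0.356 in K450R, from 0.295 to 0.462 in K451R and from 0.276 to 0.483 in K450RK451R cells. It rose in 4 of 4 lines by a mean of 0.57 on the log2 scale (SD 0.26), with an exact two-sided permutation p of 0.125, the smallest that 4 lines allow. HOXB13 reads per GATA2 read rose in the same 4 lines by 0.40 (SD 0.12, exact permutation p = 0.125). GRHL2 reads per GATA2 read fell in WT and rose in the other lines (mean 0.36, SD 0.41, exact permutation p = 0.25). In the siRNA samples FOXA1 gave 1.68 and 1.69 reads per GATA2 read in siNTC and 1.75 and 1.79 in siEHMT1.

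**Figure D4:**
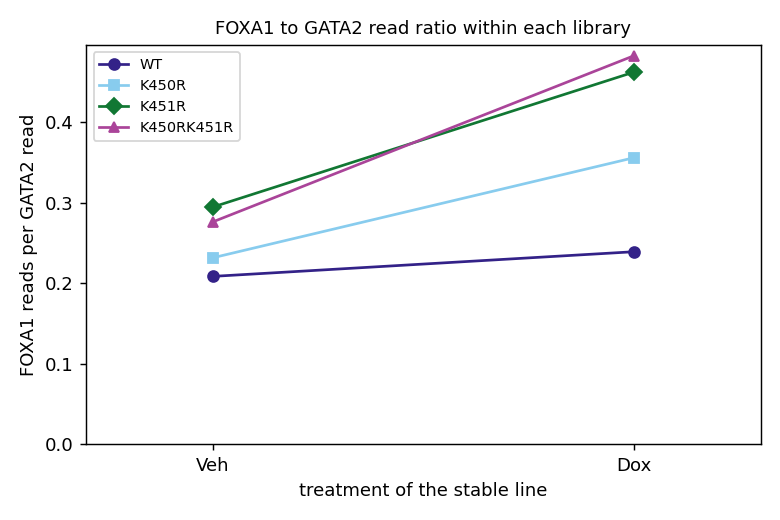
FOXA1 reads divided by GATA2 reads in the same library (y axis) for each stable line with Veh and Dox (x axis). The ratio rises in each line, from 0.209 to 0.239 in WT and from 0.276 to 0.483 in K450RK451R cells. It restates the FOXA1 and GATA2 changes of the same samples.

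Across the 8 stable-line conditions the levels of FOXA1 and GATA2 had a Pearson r of -0.90, GATA2 and GRHL2 -0.90, and FOXA1 and GRHL2 0.81. HOXB13 followed less, with r of 0.67 to FOXA1 and 0.26 to GRHL2. These values describe 8 points that share lines and a treatment. Among 9144 genes with a mean of at least 100 counts, the genes of most similar pattern were SIRT3, CNOT11 and CCNE1 for FOXA1 (r of 0.976 to 0.983), and RNASEH2B, FAM172A and FAM32A for HOXB13 (0.955 to 0.975). They were CNBP, WDR45B and ATF4 for GATA2 (0.987 to 0.992), and BTBD7, FEM1A and LETM1 for GRHL2 (0.984 to 0.994). With Spearman correlation 0 of the 3 genes remained for FOXA1, HOXB13 and GATA2 and 1 for GRHL2.

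In the GRCh37 annotation (GENCODE 44), FOXA1 (ENSG00000129514) lies at chr14:38058757-38065264 and GATA2 (ENSG00000179348) at chr3:128198270-128212044, both on the minus strand. HOXB13 (ENSG00000159184) lies at chr17:46802125-46806112 on the minus strand, and GRHL2 (ENSG00000083307) at chr8:102504667-102681954 on the plus strand. Counts are reads over the exons of each gene. FOXA1, GATA2 and GRHL2 each overlap at least 1 gene on the opposite strand, and whether strand was used in counting is not given in the sources used here, so reads of such pairs cannot be told apart. TTC6, which overlaps the FOXA1 start, was at 145 to 174 CPM in the stable lines with a Dox difference of 0.09 (edgeR adjusted p = 0.549). The antisense RNA RP11-475N22.4 at GATA2 was at 20.2 to 25.9 CPM with a difference of -0.04 (adjusted p = 0.922), and KB-1562D12.1, across the GRHL2 start, was at most at 2.51 CPM. PRAC1, a small prostate gene beside HOXB13, was at 180 to 211 CPM and differed by -0.03 (adjusted p = 0.872), and PRAC2 by -0.06 (adjusted p = 0.846).

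Of 12 paralogs of the 4 factors, 4 could be tested in the siRNA samples and 3 in the stable lines, and edgeR called 0 of them, with 0 at an unadjusted p of 0.05 and 0 by DESeq2. In the siRNA samples GRHL1 was at 11.7 to 14.0 CPM, HOXC13 at 7.90 to 10.3 CPM and GATA6 at 5.14 to 6.58 CPM. FOXA2, FOXA3, GATA3 and GATA4 had at most 2 reads in any sample.

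Genes that work with the 4 factors were described by lists. Of 27 androgen-responsive genes tested, 6 rose and 0 fell with Dox, with a median log2 difference of 0.06 against 0.00 over all genes, beside 0.603% higher and 1.51% lower over all genes. At an unadjusted p of 0.05 there were 7 higher and 3 lower, beside 6.86% higher and 7.55% lower over all genes. C1orf116 rose most among them, by 0.76 (edgeR adjusted p = 4.65e-05), and PMEPA1, a TGF-beta feedback gene, by 0.66 (adjusted p = 1.08e-04). TMPRSS2, a membrane serine protease, rose by 0.22 (adjusted p = 0.0177). MAF, a leucine-zipper factor, rose by 0.52 (adjusted p = 0.0317). SLC45A3 rose by 0.23 (adjusted p = 0.0329) and ACSL3, a fatty acid activating enzyme, by 0.22 (adjusted p = 0.0409). KLK3 differed by 0.02 (adjusted p = 0.909) and KLK2 by -0.11 (adjusted p = 0.308). Without the K450R, K451R or K450RK451R line 2 genes were called higher each time, and DESeq2 called 3.

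Over all genes, 0.603% were called higher and 1.51% lower with Dox. Of 13 other lineage transcription factors tested, 0 rose and ELF3, an epithelial ETS factor, fell by 0.66 on the log2 scale (edgeR adjusted p = 1.11e-06). In all 14 alternatives 1 gene of the list was called lower. At an unadjusted p of 0.05 there were 3 higher and 1 lower, beside 6.86% higher and 7.55% lower over all genes. DESeq2 called 0 higher, and with total counts in place of TMM 2 were called higher. SPDEF, a prostate ETS factor, differed by 0.13 (adjusted p = 0.277), and EHF, another ETS factor, by 0.04 (adjusted p = 0.753). MEIS1 had a fitted difference of 0.92 but an adjusted p of 0.159, from at most 58 reads. Among 31 coregulators tested, 0 rose and 2 fell. These were HSP90AA1, a chaperone of steroid receptors, by 0.37 (adjusted p = 4.86e-04), and KDM3A, a histone demethylase, by 0.32 (adjusted p = 6.08e-03). Of the coregulators, 2 were higher and 4 lower at an unadjusted p of 0.05.

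GRHL2 is known for its epithelial target genes. Of 17 epithelial junction and splicing genes tested, 0 rose and CLDN4, a tight junction claudin, fell by 0.29 (edgeR adjusted p = 8.96e-03). At an unadjusted p of 0.05 there were 1 higher and 3 lower in this list. Over all genes, 0.603% were called higher and 1.51% lower with Dox, and 6.86% and 7.55% at an unadjusted p of 0.05. DESeq2 called none of the epithelial genes, and without K450R, K451R or K450RK451R the call was lost. Without the WT line 3 of them were called lower. CDH1, the gene for E-cadherin, differed by -0.03 and EPCAM by 0.10, and neither passed. Of 5 mesenchymal genes tested edgeR called 0, with 1 at an unadjusted p of 0.05, while limma-voom called 1 and DESeq2 0. The gene at an unadjusted p of 0.05 was FN1, the fibronectin gene, with a difference of -0.21 (adjusted p = 0.0644). FN1 was at 499 to 825 CPM in the siRNA samples and 1551 to 3011 CPM in the stable lines. VIM was at 11.7 to 13.0 CPM and 58.1 to 78.1 CPM in the same order. TWIST1, SNAI1 and SNAI2 were detected at up to 8.54 CPM, while ZEB1, ZEB2 and CDH2 had at most 3 reads in any sample. Of 7 luminal markers 1 rose with Dox, TMPRSS2, which is also in the androgen-responsive list, and without any 1 of the 3 mutant lines 0 were called higher. At an unadjusted p of 0.05 there were 1 higher and 3 lower (KRT8, KRT18 and KLK2), and the median log2 difference of the 7 was -0.11. Limma-voom called 1 of them lower, and 2 were called lower without the WT line. KRT8 differed by -0.20 (edgeR adjusted p = 0.0602) and KRT18 by -0.16 (adjusted p = 0.150). In the siRNA comparison edgeR with all 4 samples and TMM called 0 genes in every one of these lists, and DESeq2 called 0. The replicate block called 1 transcription factor, 1 luminal marker and the endothelial marker VWF higher, and total-count scaling 1 luminal marker higher. Without siNTC replicate 1, 1 androgen-responsive gene was called lower, and without siNTC replicate 2, 1 luminal marker was called higher. Without siEHMT1 replicate 2, 1 coregulator, 1 epithelial gene and 1 mesenchymal gene were called lower. At an unadjusted p of 0.05, which 9.55% of all genes passed, there were 2 of 7 luminal markers, 6 of 27 androgen-responsive genes, 1 of 13 transcription factors, 1 of 31 coregulators and 1 of 17 epithelial genes. VWF, the only endothelial marker tested, also passed there, higher by 0.88 in siEHMT1. Both luminal markers were higher in siEHMT1, KRT19, a simple-epithelium keratin, by 1.11 (edgeR adjusted p = 0.0741) and TMPRSS2 by 0.27 (adjusted p = 0.284), and the median of the 7 was 0.16.

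**Figure D5:**
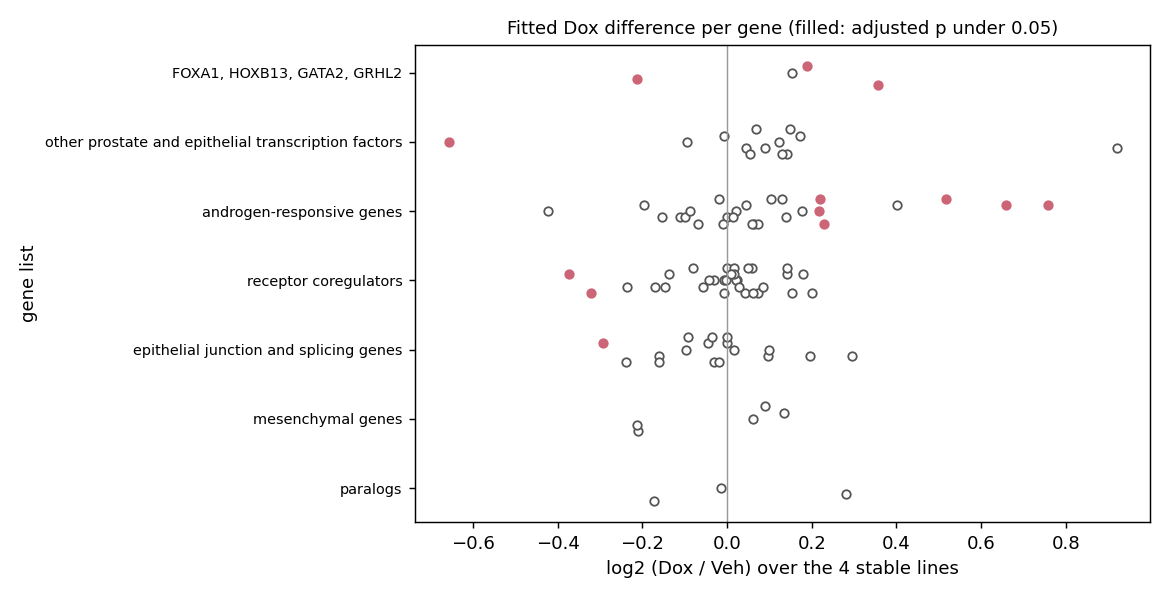
Fitted log2 difference of Dox against Veh over the 4 lines (x axis) for each tested gene of 7 lists (y axis), with filled points for an adjusted p under 0.05. In the androgen-responsive list 6 of 27 points are filled and all lie above 0, while ELF3 is the filled point at -0.66.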

How the data were processed

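RNA-seq was performed on total RNA of LNCaP cells with a stranded kit, and the authors deposited raw counts, the whole number of reads per Ensembl gene, in 1 table for 4 siRNA samples and 1 table for 16 stable-line columns. Per the submitters' processing notes, FastQC 0.11.9, STAR 2.7.2, featureCounts 1.6.4 and the hg19 or GRCh37 build were used. The annotation release and the strand setting are not given in the sources used here. The members and gene lists were chosen with earlier results of these data known. Of the genes listed, 2 are not reported here and were left out of all list counts after their values were seen. Groups were taken from the sample labels, and the authors' column heading siNCT was read as siNTC.

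Whether paired columns differed was checked by chi-square on genes whose counts summed to 20 or more. Per degree of freedom it was 0.995 to 1.02 in the stable lines, which were summed to 8 samples, and 61.6 and 13.4 in siNTC and siEHMT1, which were kept as replicates. Nothing says that replicates came from separate cultures, so p-values measure only the spread between these samples. Counts were filtered with filterByExpr, scaled by TMM and tested in R 4.3.3 with edgeR 4.0.16 (quasi-likelihood F test, Benjamini-Hochberg over all genes tested, threshold 0.05). The models were siEHMT1 against siNTC, Dox with line as a block, the 3 line terms together, and Dox by mutant. DESeq2 1.42.0, limma-voom 3.58.1, the legacy quasi-likelihood method, RLE and upper-quartile factors, no filter, a replicate block and left-out samples or lines were alternatives. Total-count scaling and TMM over both tables were added after seeing the data. Ratios within a line have exact binomial 95% intervals, which, like the floor of 3 counts, cover counting error only. Similar patterns are Pearson correlations of log2(CPM + 1). The scripts were tested on simulated data. Genes named beside the members were those of each list with an adjusted p under 0.05, at most 5 a list, or its most abundant genes, and genes with a start within 50 kb or an overlapping body. MEIS1, SPDEF, EHF, KLK2, KLK3, KRT8, KRT18, KRT19, CDH1, EPCAM, SLC45A3, ACSL3, VWF, the paralogs and the mesenchymal genes were named after their values were seen. Of the gene identifiers, 55538 were found in GENCODE 44. Promoters were taken from RefSeq, with 2 of the 4 members matched and chromosome 8, which holds GRHL2, left out of that match.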

Additional observations from a re-analysis of the deposited data

Results flagged for a closer look

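HOXB13 in K450R cells with Dox, at 473.4 CPM, stood apart from the other 3 Dox samples, which lay between 442 and 444 CPM. About 1 in 20 groups of this size is flagged by chance. The Dox responses of GATA2 and GRHL2 differed between the mutant lines and WT at an unadjusted p, by -0.2853 for GATA2 (edgeR adjusted p = 0.544) and by 0.3978 for GRHL2 (edgeR adjusted p = 0.521) on the log2 scale.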

How the results depend on the processing

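The 4 tests were rerun under 10 to 14 alternatives each, except that DESeq2 gave no adjusted p for GRHL2 in the interaction, which leaves 9 there. FOXA1 kept its Dox call in 14 of 14 and its line call in 10 of 10, and no member was called for siRNA in 13 of 13. The number of genes called for siRNA was 19, and 12 with DESeq2, 12 without a filter on low counts, 118 with the replicate block and 38 to 110 without 1 replicate. For same-numbered siRNA samples, the deviations from the group means had a correlation of -0.01 across 14532 genes. Whether such samples were prepared together is not given in the sources used here. For Dox the 298 calls became 140 with DESeq2, 1900 with the columns as samples and a replicate block, and 114 to 501 without 1 line or 1 column. The block changed no other member's call than those given below.

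For HOXB13 with Dox the log2 difference was 0.19 with DESeq2 (adjusted p = 0.0623), 0.19 with the legacy method (0.0661) and 0.19 with RLE factors (0.0584), each above 0.05, and 0.17 to 0.21 without 1 line or column. For GATA2 it was -0.22 with DESeq2 (0.0846), -0.21 with the legacy method (0.0645), -0.20 with upper-quartile factors (0.0746), -0.13 with total counts (0.168), and -0.28 to -0.15 without 1 line or column. For GRHL2 it was 0.16 with the columns as samples and a replicate block (0.0361) and 0.058 to 0.25 without 1 line or column. The test of line gave 430 calls, 239 with DESeq2 and 3168 with the replicate block, and GATA2 then passed there at -0.29, and at -0.30 without a filter. The interaction gave 23 calls, 43 with limma-voom, 15 without a filter and 639 with the replicate block, where GATA2 (-0.29) and GRHL2 (0.40) passed. Columns taken as samples count each library more than once, so their p-values are too small.

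Within lines, total-count scaling gave log2 ratios in K451R of 0.47 for FOXA1, 0.30 for HOXB13, -0.18 for GATA2 and 0.56 for GRHL2, and in K450RK451R of 0.55, 0.26, -0.26 and 0.39. In K450R, single columns gave 0.16 to 0.29 for HOXB13 and -0.24 to -0.061 for GATA2. Mean RPKM over the siRNA samples became 89.6, 48.0 and 40.9 for FOXA1, GATA2 and GRHL2 with longest-transcript lengths and 67.6 for FOXA1 and 125 for HOXB13 with TMM over both tables, and over the stable lines 61.9 for FOXA1 and 186 for GATA2 with longest-transcript lengths. The causes of these differences were not tested.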
